A study of Mus musculus with 11 samples.

Results

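The Gimap genes encode the GTPases of immunity-associated proteins, and 8 of them were followed here in CD8+ Tregs of young and middle-aged mice. They were taken from the table by gene name (Gimap1, Gimap3, Gimap4, Gimap5, Gimap6, Gimap7, Gimap8 and Gimap9), and each of the 8 was found on 1 row of a table of 54532 genes. All 8 were among the 13129 genes with enough counts to be tested. The cells were CD8+CD44+Ly49+CD122+ T cells, sorted by FACS from the spleen of wild-type C57BL/6J mice after selection of CD8+ cells on beads. RNA sequencing gave 11 libraries, from 3 young males and 3 young females (2 to 3 months) and from 2 middle-aged males and 3 middle-aged females (10 to 12 months). The sample labels call the older group old, and the term middle-aged is used here. The study's text gives a single age for each sequenced group, at the upper end of the labelled ranges. No animal carried an allele or had a treatment that the labels name, so age and sex are the only labelled differences. The comparison asks how the transcriptome of CD8+ Tregs differs with age.

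GIMAP proteins are GTP-binding proteins of lymphocytes, many of which sit on the membranes of organelles and assemble with each other when they bind GTP. They are best known for keeping resting T cells alive. Loss of Gimap5 causes a severe lack of peripheral T cells in rats and mice, and Gimap1 is needed for mature T and B cells. Gimap3 is a close relative of Gimap5 and supports T cell development together with it. Gimap4 has been linked to faster death of T cells, Gimap6 to autophagy through GABARAP-type proteins, and Gimap7 can stimulate the GTPase activity of partner GIMAP proteins. Gimap8 is the longest member and carries repeated GTPase domains.

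The 8 genes lay within 123.6 kb of chromosome 6, between 48647234 and 48770851 of the mouse build GRCm38, and 6 of them were on the plus strand. Gimap8 came first (48647234 to 48660875), followed by Gimap9 (48676129 to 48679114), Gimap4 (48684549 to 48692060), Gimap6 (48701582 to 48708225, minus strand), Gimap7 (48718621 to 48724636), Gimap1 (48739054 to 48743795), Gimap5 (48746197 to 48754210) and Gimap3 (48764464 to 48770851, minus strand). The coding sequence was 873 to 984 bases long in 7 members and 2064 bases in Gimap8. It lay in a single exon in Gimap7 and Gimap9. In Gimap1, Gimap3, Gimap4 and Gimap5 between 94.1% and 96.9% of it lay in 1 exon, against 69.7% in Gimap6 and 31.9% in Gimap8.

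Gimap3 and Gimap5 were the closest pair, with 90.7% of 895 aligned coding bases identical, whereas the other 27 pairs ranged from 57.6% to 68.8%. Their longest identical run was 140 bases within the large coding exon of each gene (chr6:48765671-48765830, minus strand, for Gimap3 and chr6:48752674-48752833, plus strand, for Gimap5, with the flanks shown). It is printed because a read from it could belong to either gene; capitals mark the identical run, and lower case the 10 bases on each side:
Gimap3: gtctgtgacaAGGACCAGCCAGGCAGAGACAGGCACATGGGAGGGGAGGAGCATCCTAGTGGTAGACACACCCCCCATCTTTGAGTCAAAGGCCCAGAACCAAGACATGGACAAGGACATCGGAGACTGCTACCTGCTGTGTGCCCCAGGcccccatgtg
Gimap5: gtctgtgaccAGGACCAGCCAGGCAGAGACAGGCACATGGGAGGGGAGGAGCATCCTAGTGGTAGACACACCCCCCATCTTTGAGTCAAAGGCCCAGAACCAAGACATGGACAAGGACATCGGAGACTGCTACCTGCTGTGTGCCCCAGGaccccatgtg
Of the 31-base words in the transcripts of Gimap3 (GENCODE M21), 13.2% also occurred in Gimap5, and 8.02% of those of Gimap5 occurred in Gimap3. No other pair of members shared such a word. The words of Gimap4 and Gimap9 occurred in no other gene. For Gimap1, 8.36% occurred in another gene on the same strand, and a further 29.9% only on the opposite strand, mostly in Gimap1os, which overlaps Gimap1 in antisense. The counting program's use of strand is not given in the sources used here, so the counts of Gimap1 and Gimap1os may not be separated.

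Promoter windows of 300 bases around each start (RefSeq, GRCm38.p6) were found for all 8 members, in 9 windows, since Gimap8 had 2 starts. Those of Gimap4 and Gimap8 are printed because they are the members of highest and lowest level per length. Capitals mark AGGAAG (an ETS-type core), TGTGGT (RUNX-type) and CCACCC (KLF-type), searched on both strands, and these 3 motifs do not overlap here:
Gimap4, chr6:48684328-48684627, plus strand: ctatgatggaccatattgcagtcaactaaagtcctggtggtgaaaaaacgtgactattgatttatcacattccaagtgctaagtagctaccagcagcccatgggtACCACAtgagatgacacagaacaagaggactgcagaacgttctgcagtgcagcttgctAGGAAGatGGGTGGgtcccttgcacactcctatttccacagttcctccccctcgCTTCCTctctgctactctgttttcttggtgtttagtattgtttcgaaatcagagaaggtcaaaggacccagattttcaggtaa
Gimap8, chr6:48646984-48647283, plus strand: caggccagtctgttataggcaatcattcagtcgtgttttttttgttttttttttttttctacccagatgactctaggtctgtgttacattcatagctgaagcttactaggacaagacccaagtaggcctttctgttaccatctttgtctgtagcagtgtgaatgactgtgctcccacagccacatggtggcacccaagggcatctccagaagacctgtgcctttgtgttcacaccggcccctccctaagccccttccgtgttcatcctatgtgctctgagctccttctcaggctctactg
AGGAAG stood in a window of 7 of the 8 members (none of Gimap6), against 35.4% of the 32851 promoters of the table. TGTGGT stood in windows of 3 members (Gimap1, Gimap4 and Gimap7; 16.8% of all promoters) and CCACCC in those of 5 (Gimap3, Gimap4, Gimap5, Gimap8 and Gimap9; 31.5%). The Gimap8 window printed held none of these motifs, and the window of its second start held AGGAAG and CCACCC. The STAT-type TTCNNNGAA was present for 4 members (Gimap3, Gimap6, Gimap7 and Gimap8; 8.30% of all promoters), TATAAA only for Gimap6 (13.6%), and the FOXO-type GTAAACA only for Gimap3 (3.65%). In all, 9 motifs were searched, the other ones being CCAAT (3 members; 37.4% of all promoters), TGGGAA (1 member; 25.6%) and CANNTG (6 members; 72.3%). A match is a description of the letters and not of binding.

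The libraries held 6135736 to 24394532 counts, with young male 1 and young female 1 (8421396) as the shallowest. Levels are given as CPM (counts in a library scaled to a fixed total) with edgeR's TMM factors, which correct library size for composition. Genes of CD8 T cells were present in every library (Cd3e, Cd3d, Cd3g, Cd8a, Cd8b1 and Trac together 5178 to 12886 CPM), as were 4 genes of the sorting gate and of CD8+ Tregs (Cd44, Il2rb, Klra6 and Ikzf2; 1050 to 2949 CPM). The 4 libraries that carry replicate number 1 in their labels stood apart from the other 7 in how levels varied with gene length. The measure was the slope, on log2 length, of each gene's log2 CPM minus its mean over the 11 libraries. It was -0.26 to -0.09 in the libraries numbered 1 and 0.01 to 0.18 in those numbered 2 or 3. Because the slopes are relative to that mean, their signs compare libraries only. The labels do not say what the number stands for. For the age comparison, the log2 fold changes without these 4 libraries are given as well.

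As a family, the Gimap genes took 0.435% to 0.640% of all counts in a library. Their summed level was 4687 to 7036 CPM over the 11 libraries, with a mean of 5520 ± 772 CPM (SD, n = 11). Gimap3, Gimap4 and Gimap6 together made up 74.0% to 80.6% of the family's counts. In mean log2 CPM, Gimap4, Gimap3 and Gimap6 stood above 99.7%, 99.5% and 99.4% of the genes tested, and Gimap8, the lowest, above 79.6%. All 8 genes were measured far above the limit that a count of 0 allows (3 counts per library, 0.119 to 0.543 CPM; counting error only).

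Since a longer gene collects more reads, levels were compared between members per kb of the exon length given in the table. Gimap4 was highest at 908 ± 188 CPM per kb (SD, n = 11), followed by Gimap3 (524 ± 113), Gimap6 (370 ± 128), Gimap9 (154 ± 51.1), Gimap7 (153 ± 61.4), Gimap1 (94.4 ± 13.2), Gimap5 (53.2 ± 9.07) and Gimap8 (23.4 ± 10.0). Gimap4 was above Gimap3, Gimap6 above Gimap9, Gimap1 above Gimap5 and Gimap5 above Gimap8 in 11 of 11 libraries each. Gimap3 and Gimap6 kept their order in 8 libraries and Gimap7 and Gimap1 in 9, so these neighbours were not separated beyond the spread between libraries. Gimap9 was above Gimap7 in 6 libraries, which were all the young ones, and below it in every middle-aged library. The means of Gimap9 and Gimap7 were 161 and 131 CPM per kb in young libraries and 146 and 180 in middle-aged ones. This split by age was seen afterwards and was not tested. In young male 1, Gimap6 was also slightly above Gimap4 (645 against 637 CPM per kb), the only library of the 11 with that order. When the length of the longest annotated transcript was used instead, Gimap7 stood above Gimap9 in 11 of 11 libraries (280 ± 113 against 183 ± 60.7 CPM per kb; SD, n = 11), and Gimap7 was ranked 4 and Gimap9 ranked 5. The other ranks did not move, but Gimap9 and Gimap1 (180 ± 25.2 CPM per kb) were then nearly equal. Their order was not separated beyond the spread between libraries.

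**Figure D1:**
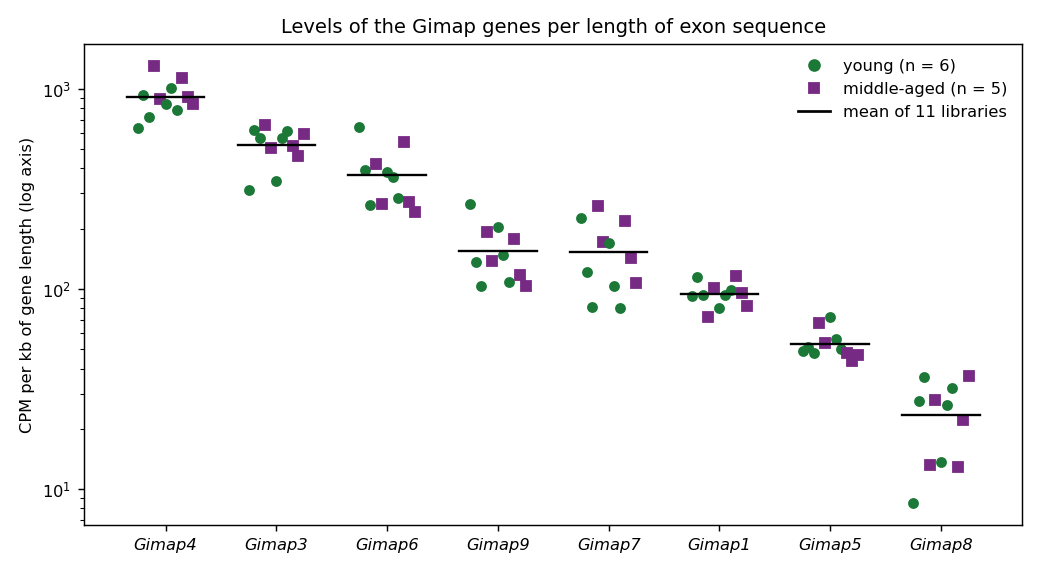
Levels of the 8 Gimap genes in CPM per kb of gene length (log axis), 1 point per library (circles, 6 young; squares, 5 middle-aged), with the mean of 11 libraries as a bar. Gimap4 has the highest mean (908 CPM per kb) and Gimap8 the lowest (23.4), and young and middle-aged points are mixed within each gene.

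No Gimap gene differed between middle-aged and young CD8+ Tregs at an adjusted p under 0.05. In edgeR's quasi-likelihood test with sex as a second term, 0 of 8 members were called, where 3 of all 13129 genes were (0.0229%), and 0 members had an unadjusted p under 0.05 (393 of all genes, 2.99%). For no member did the libraries of the age groups lie apart (172 of all genes, 1.31%). DESeq2's Wald test called 0 members (112 of all 13129 genes), with 0 at an unadjusted p under 0.05 (581 of all genes). With limma voom and quality weights, 0 members were called (136 of all genes). In that test 1 member (Gimap7) had an unadjusted p under 0.05, as did 1163 of all 13129 genes. By edgeR, 3 members had a positive log2 fold change (middle-aged over young) and 5 a negative one. Their median was -0.05, beside 0.00 over all genes tested. In bulk RNA, fewer cells that express a gene and less of its RNA per cell cannot be told apart.

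The summed family level was 4687, 5392 and 5867 CPM (lowest, median and highest) in the 6 young libraries. In the middle-aged libraries it was 7036 and 5131 CPM in males and 6711, 4883 and 4907 CPM in females. The ranges thus overlapped, and the highest middle-aged values came from the libraries numbered 1. With the family as 1 row of the table, its log2 fold change was 0.11 (95% interval -0.32 to 0.54, a fold of 0.801 to 1.45), with an adjusted p of 1.00 by edgeR. Without the 4 libraries numbered 1 it turned to -0.09 (adjusted p = 0.999).

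Gimap4, the member linked to T cell death, had the lowest exact p. It was found at 1170, 1486 and 1861 CPM (lowest, median and highest) in young libraries. In middle-aged libraries it was 2392 and 1630 CPM in males and 2081, 1670 and 1534 CPM in females. Only the middle-aged libraries numbered 1 exceeded every young library, and the others lay within the young range. The log2 fold change was 0.30 (95% interval -0.16 to 0.76), and an exact permutation test of the age labels gave a two-sided p of 0.0931. The mean log2 difference was 0.73 among libraries numbered 1, -0.12 among those numbered 2 and 0.15 among those numbered 3, so it was not in the same direction within each number. Without the 4 libraries numbered 1, the log2 fold change was 0.0154.

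Gimap7, which stimulates partner GIMAP GTPases, showed the largest fitted difference of the 8. The young libraries ranged from 188 to 528 CPM (median 262). The middle-aged libraries had 604 and 398 CPM in males and 507, 330 and 248 CPM in females. The age groups overlapped, with the libraries numbered 1 highest in each, and they also overlapped among the libraries numbered 2 or 3. The log2 fold change was 0.49 (95% interval -0.21 to 1.18), which was not called by edgeR (adjusted p = 1.00; exact permutation p = 0.173). Among libraries of the same sex and number, which the labels do not call pairs, the middle-aged level was higher in 5 of 5 sets, by ratios of 1.14 and 1.40 in males and 1.29, 1.37 and 1.32 in females. Of all genes tested, 955 (7.27%) were higher in all 5 such sets. With each library's gene length slope as a covariate, the log2 fold change of Gimap7 was 0.60 (SE 0.10) and its adjusted p 0.0418 by edgeR. That setting called 45 of all 13129 genes, where the main model called 3. Gimap7 was the only member called for age under any of the settings tried, and only with the slope as covariate. Without the 4 libraries numbered 1, the log2 fold change was 0.56 (adjusted p = 0.854), and in limma voom 0.69 (adjusted p = 0.197).

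The survival genes Gimap1, Gimap3 and Gimap5 had intervals on both sides of 0. Gimap1 was found at 247 to 353 CPM in young libraries (median 286). Its middle-aged levels were 223 and 311 CPM in males and 354, 293 and 252 CPM in females, so these ranges were nearly the same (log2 fold change -0.03, 95% interval -0.45 to 0.39). Gimap3 ranged from 800 to 1597 CPM in young libraries (median 1461), with the lowest values in young male 1 and young female 1 (887 CPM). In middle-aged libraries Gimap3 was 1700 and 1308 CPM in males and 1334, 1188 and 1529 CPM in females (log2 fold change 0.12, 95% interval -0.41 to 0.66). Without the libraries numbered 1, the difference turned to -0.19 in Gimap3, and was -0.0838 in Gimap1 and -0.0918 in Gimap5. With Gimap3 and Gimap5 summed, since they share sequence, the log2 fold change was 0.10 (SE 0.22).

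For Gimap6, which links to autophagy, the young libraries had 922, 1305 and 2255 CPM (lowest, median and highest). Middle-aged males had 1473 and 933 CPM and middle-aged females 1898, 947 and 843 CPM. The young maximum came from young male 1, and the log2 fold change of -0.13 (95% interval -0.79 to 0.54) turned to 0.0483 without that library, but was -0.32 without all 4 libraries numbered 1. Gimap8 was found at 31.5, 99.8 and 135 CPM in young libraries, at 48.9 and 102 CPM in middle-aged males and at 47.9, 81.9 and 136 CPM in middle-aged females (log2 fold change -0.11, SE 0.41). Gimap9 had 170, 234 and 437 CPM in young libraries, 314 and 227 CPM in middle-aged males and 291, 193 and 170 CPM in middle-aged females (log2 fold change -0.13, 95% interval -0.76 to 0.50). Without the libraries numbered 1, the values were -0.0693 for Gimap8 and -0.0458 for Gimap9. Gimap8 and Gimap7 had the widest 95% intervals of the 8, which reached from a fold of 0.499 to 1.73 in Gimap8 and from 0.867 to 2.26 in Gimap7.

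**Figure D2:**
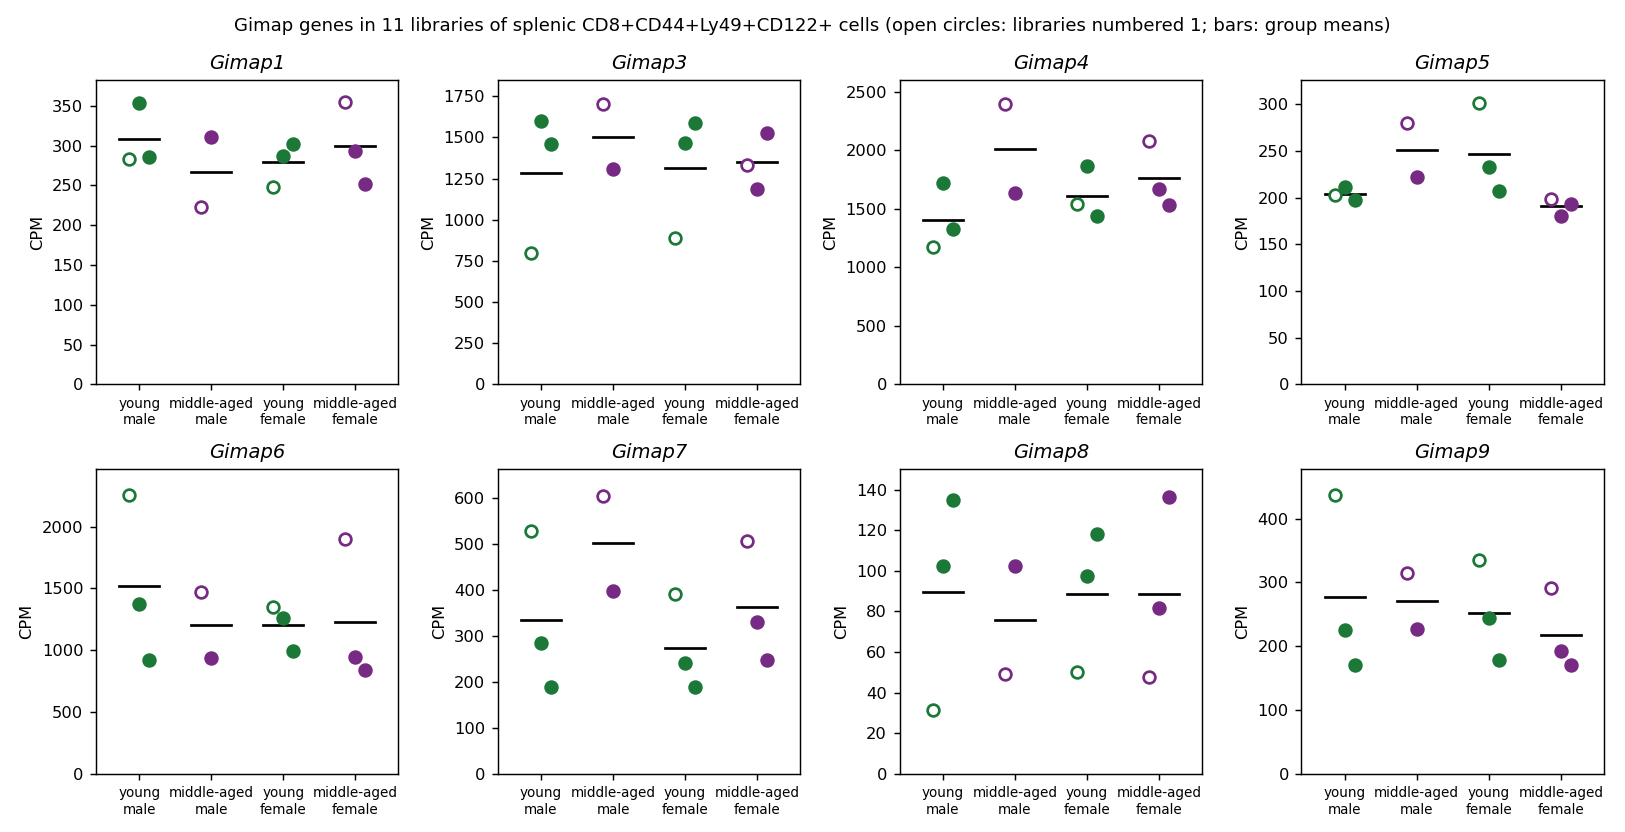
Level of each Gimap gene in CPM by age and sex, 1 point per library (green, young; purple, middle-aged; open circles, libraries numbered 1), with group means as bars. Gimap7, Gimap8 and Gimap9 spread mainly by replicate number, with the libraries numbered 1 at 31.5 to 50.2 CPM in Gimap8 and at 291 to 437 CPM in Gimap9.

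Gimap5, whose loss depletes T cells, had opposite differences in males and females, which did not pass the test. Young males had 202, 212 and 198 CPM, below both middle-aged males (280 and 222 CPM). Young females had 302, 232 and 208 CPM, above all 3 middle-aged females (198, 180 and 194 CPM). The groups thus did not overlap within either sex. Such a pattern, with no overlap and opposite directions in males and females, was found for 66 of all genes tested (0.503%) and for no other Gimap gene. The interaction of age and sex was -0.67 on the log2 scale (SE 0.37, unadjusted p = 0.0989 and adjusted p = 1.00 by edgeR). DESeq2 and limma voom gave unadjusted p values of 0.0518 and 0.0666. The interaction's adjusted p was 0.629 to 1.00 over 24 other settings, and its size -0.79 to -0.33. Pooled over the sexes, the log2 fold change of Gimap5 with age was -0.07 (95% interval -0.51 to 0.37).

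**Figure D3:**
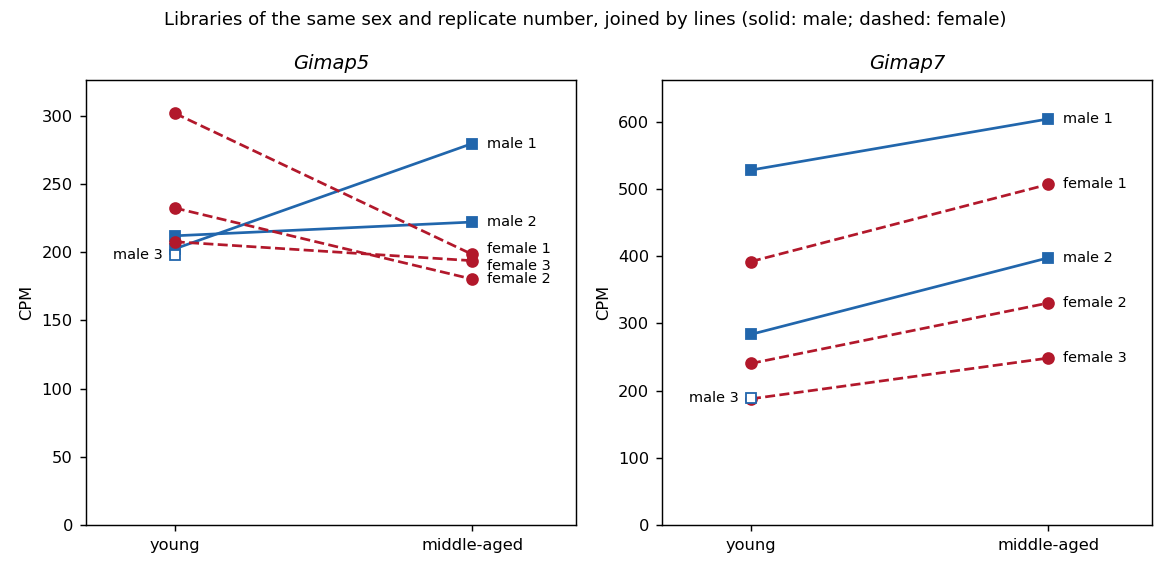
Gimap5 and Gimap7 in CPM, with lines that join the young and the middle-aged library of the same sex and replicate number (squares and solid lines, males; circles and dashed lines, females; young male 3, open square, has no middle-aged partner). Gimap7 is higher in the middle-aged library of 5 of 5 joined sets, while Gimap5 is higher in the 2 male sets and lower in the 3 female sets.

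Over all members, the interaction was called by edgeR for 0 of 8 (0 of all 13129 genes, 0%, with 158 at an unadjusted p under 0.05), and 0 members had an unadjusted p under 0.05. Neither DESeq2 nor limma voom called a member or gave an unadjusted p under 0.05 for one. No difference between females and males was called either. The sex term passed for 0 of 8 members, where 5 of all genes were called (0.0381%), and 0 members had an unadjusted p under 0.05 by edgeR, DESeq2 or limma voom. The largest difference by sex was in Gimap7, with a log2 fold change of -0.37 (female over male, SE 0.32; adjusted p = 1.00 by edgeR).

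The replicate number separated the Gimap genes, like the genes tested in general, more than age or sex did. Libraries numbered 1 were set against the mean of those numbered 2 and 3 in edgeR, in a model with sex and age. This comparison was added after the values were seen. It called 4 of 8 members, and 4631 of all genes tested (35.3%). Of these members, Gimap6, Gimap7 and Gimap9 were higher in the libraries numbered 1, and Gimap8 was lower.

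Gimap8 was 31.5, 48.9, 50.2 and 47.9 CPM in young male 1, middle-aged male 1, young female 1 and middle-aged female 1, and 81.9 to 136 CPM in the other 7 libraries (log2 fold change -1.33, SE 0.17; adjusted p = 0.00029). Gimap9 was 437, 314, 336 and 291 CPM in the same 4 libraries and 170 to 244 CPM in the others (log2 fold change 0.81, SE 0.11; adjusted p = 0.000485). For these members the libraries numbered 1 lay entirely apart from the rest, as they did for 3291 of all genes (25.1%). Gimap7 was 392 to 604 CPM against 188 to 398 CPM (log2 fold change 0.94, SE 0.10; adjusted p = 0.000103), and Gimap6 was 1349 to 2255 CPM against 843 to 1375 CPM (log2 fold change 0.80, SE 0.16; adjusted p = 0.00378), with some overlap. Gimap1, Gimap3, Gimap4 and Gimap5 were not called, with log2 fold changes from -0.37 in Gimap3 to 0.27 in Gimap5. All 4 calls were kept in each of 14 other settings.

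Over all genes, the median log2 fold change of libraries numbered 1 was 0.54 among the 4376 shortest genes (up to 2682 bases), -0.34 among the next 4376 and -0.61 among the longest 4377. Gimap9 (1642 bases), Gimap4 (1837), Gimap7 (2325) and Gimap3 (2577) belonged to the shortest genes, and Gimap1 (3073), Gimap6 (3496), Gimap8 (3700) and Gimap5 (4149) to the middle. Gimap3 (-0.37), Gimap6 (0.80) and Gimap5 (0.27) had the sign opposite to the median of their length group, and the remaining members had the same sign. The part of the length slope in these differences was not tested.

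These members also ran in opposite directions in their correlations over the 11 libraries, which differ in the length slope described above. Pearson's r was -0.95 for Gimap8 and Gimap9, -0.88 for Gimap6 and Gimap8 and -0.87 for Gimap7 and Gimap8, but 0.89 for Gimap6 and Gimap9 and 0.82 for Gimap7 and Gimap9 (n = 11). Gimap3 and Gimap5, the closest pair in sequence, had an r of -0.12. These values describe these libraries and were not tested.

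**Figure D4:**
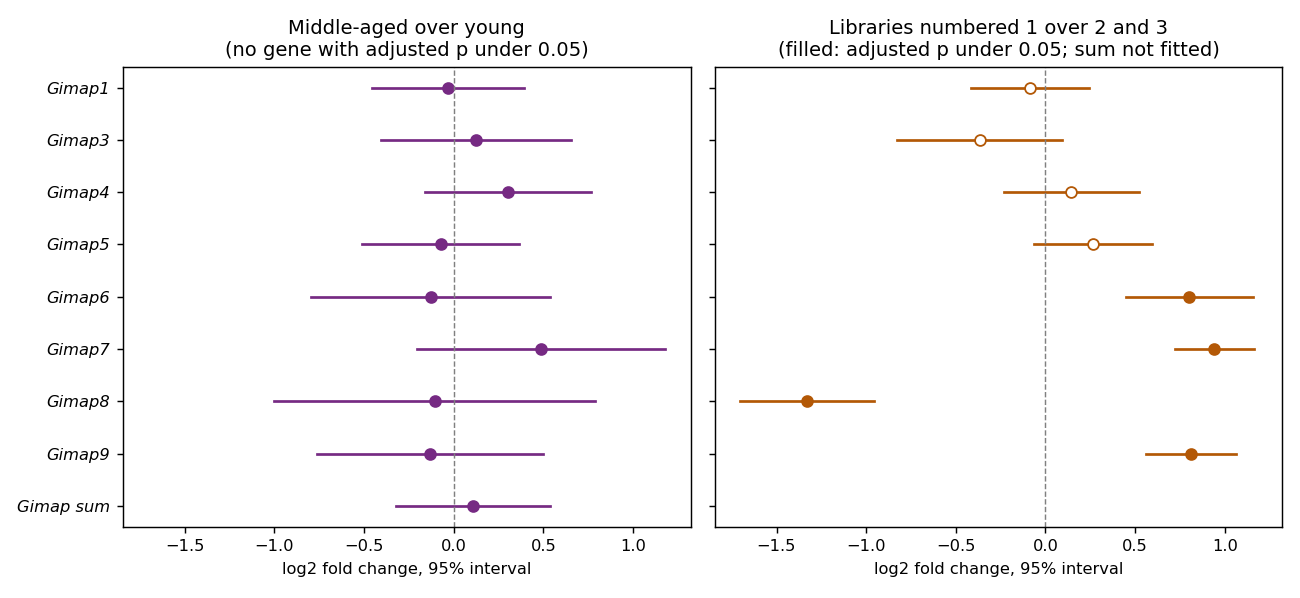
Log2 fold changes of the Gimap genes with 95% intervals from edgeR, for middle-aged over young (left) and for libraries numbered 1 over those numbered 2 and 3 (right; filled points, adjusted p under 0.05). All age intervals cross 0, whereas Gimap6, Gimap7 and Gimap9 are higher and Gimap8 lower in the libraries numbered 1, with log2 fold changes of 0.80, 0.94, 0.81 and -1.33.

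Genes of T cell survival and related processes were listed as possible partners of the family (24 genes, all tested). The list comprised BCL2-type proteins, receptors for IL-7 and IL-15, autophagy proteins and the signalling genes Gsk3b, Ctnnb1 and Notch1. Whether these genes act with GIMAP proteins was not tested. By edgeR 0 of 24 were called for age, 4 had an unadjusted p under 0.05 and were higher in middle-aged cells (263 of all genes, 2% of those tested, were), and 0 were lower at that p (130 of all genes, 0.99%). The list's median log2 fold change was 0.02. Il15ra, which presents IL-15 to memory-type CD8 T cells, had a mean of 18.0 CPM in young libraries and of 33.1 CPM in the middle-aged ones (log2 fold change 0.88, SE 0.26; adjusted p = 0.643). Bcl2, a survival factor, had 264 and 367 CPM (log2 fold change 0.48, SE 0.18; adjusted p = 1.00), and its relative Bcl2l1 59.3 and 77.8 CPM (0.41, SE 0.19; adjusted p = 1.00). Pmaip1, a death-promoting member of that family, had 6.23 and 17.1 CPM (1.49, SE 0.63; adjusted p = 1.00). The age groups did not overlap for Il15ra, Bcl2 and Pmaip1, and overlapped for Bcl2l1 (groups apart in 1.31% of all genes). A list of 20 genes of T cell quiescence had 0 genes called, 0 with an unadjusted p under 0.05 and higher, and 1 lower, Lef1, a factor of naive T cells (443 and 319 CPM, log2 fold change -0.47, SE 0.20; adjusted p = 1.00), and its median log2 fold change was -0.04.

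Genes used as markers of other cells, of which B and NK cells also express Gimap genes, varied between the libraries as well. The NK list alone cannot tell NK cells from the sorted cells. The paper reports NK receptor genes in CD8+ Tregs themselves, with Klrb1a and Klrb1b lower in middle-aged ones, and that CD8+ Tregs need Eomes. Of 7 NK cell genes, 5 were lower in middle-aged libraries at an unadjusted p under 0.05, beside 0.99% of all genes, among them Gzma, a granzyme (327 and 94.9 CPM), and Ncr1, an NK receptor (70.4 and 18.0 CPM). The other genes of that list were Eomes (164 and 255 CPM, log2 fold change 0.61) and Cd7 (342 and 410 CPM, log2 fold change 0.26), neither of which passed that p. The 7 summed to 749 to 1165 CPM in young libraries and 704 to 1079 CPM in the others. The myeloid genes (7, with Lyz2 higher at an unadjusted p under 0.05) summed to 128 to 300 CPM in the young group and 139 to 1332 CPM in the older, with the maximum in middle-aged female 2, where B cell genes (601 CPM) and plasma cell genes (330 CPM) were also highest of all libraries. Of the 7 myeloid genes, 4 had a positive log2 fold change, and Adgre1 (-0.28), Itgam (-0.73) and Fcer1g (-0.37) had a negative one. In the same order of groups, the B cell genes (7) ranged from 133 to 387 and 171 to 601 CPM, the plasma cell genes (6) from 96.8 to 128 and 112 to 330 CPM, the CD4 T cell genes (5) from 21.5 to 129 and 73.9 to 149 CPM, and the naive T cell genes (6, with Lef1 and Dapl1 lower at an unadjusted p under 0.05) from 2688 to 4885 and 3156 to 4170 CPM. The erythroid and platelet genes (6, with Hba-a1 and Hbb-bs lower at an unadjusted p under 0.05) ranged from 22.8 to 116 and 0.998 to 34.8 CPM, and the endothelial genes (7) from 25.4 to 93.9 and 19.9 to 68.9 CPM, with Emcn at 0 in all 11 libraries. The other tested genes of the erythroid and platelet list, Ppbp, Pf4 and Itga2b, had positive log2 fold changes (0.95, 1.74 and 1.68) that did not pass that p. None of these genes was called by edgeR at an adjusted p under 0.05. Their part in the Gimap values was not tested. Without middle-aged female 2, the log2 fold change of the family sum was 0.15.

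No gene around the cluster was called for age. Within 500 kb of its outer ends the table held 51 other genes, of which 18 were tested and 33 had too few counts. Of the 18, 0 had an unadjusted p under 0.05 by edgeR, and their log2 fold changes lay between -0.86 (Zfp467, a zinc finger gene) and 1.04 (Tmem176b, a membrane protein gene), both at under 10 CPM. Among the tested genes inside the cluster, Gimap1os had means of 27.9 (young) and 21.7 CPM (middle-aged), against 293 and 287 CPM for Gimap1. Gm28053, a gene model whose transcript shares words with Gimap1, Gimap3, Gimap5 and Gimap7, had 4.72 and 5.29 CPM, Gm44226 0.966 and 1.47 CPM and 4833403J16Rik 3.41 and 2.38 CPM. The tested genes outside it were Krba1, Zfp862-ps, Gm10243, Gm7887, Lrrc61, Repin1, Zfp775, AI854703, Tmem176a, Gpnmb, Malsu1 and Tra2a, with Zfp467 and Tmem176b as named above.

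Outside the family, the genes whose log2 CPM followed the summed Gimap level most closely over the 11 libraries were Crls1 (Pearson's r = 0.92), Commd10 (0.92), Ppp2r2d (0.91), Btg3 (0.91) and Rcn2 (0.90). Their log2 fold changes with age were 0.32, 0.30, 0.15, 0.30 and 0.14, and none was called by edgeR. They were picked as the highest of all genes tested, so these values of r are a description of 11 libraries that differ by replicate number, age and sex.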

How the data were processed

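The authors deposited raw counts, whole numbers of reads per Ensembl gene without normalization, for 11 libraries (1 per mouse group and replicate number, described as biologically independent). RNA was isolated with a column kit and libraries were made with a SMARTer kit. Per the labels, the submitters' processing notes name kallisto and mm10. Versions, the use of strand and any rounding of estimated counts are not given in the sources used here, and neither is a statistical test.

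Library totals were 6135736 to 24394532 counts. Genes were kept by filterByExpr on age (minimum count 10, minimum total count 15; 13129 of 54532) and tested in edgeR 4.0.16 (R 4.3.3) with TMM factors and robust quasi-likelihood fits of sex and age, with Benjamini-Hochberg adjustment over all genes tested (threshold 0.05). Log2 CPM used a prior count of 2. Intervals are 95% intervals from the fitted standard errors. The exact permutation test ran over every assignment of the age labels to 6 and 5 libraries, and the smallest p it allows is 0.00216. The steps were tested on simulated data. DESeq2 1.42.0 and limma 3.58.1 were alternatives.

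The members and lists were chosen with earlier results of these data known. Named genes are the 8 members, the tested neighbours within 500 kb, up to 5 genes per partner or quiescence list with an unadjusted p under 0.05, and the 5 non-members most correlated with the family sum; marker genes were named after their values were seen. Shared words of 31 bases and coding alignments used GENCODE M21 transcripts of GRCm38, which may not be the authors' annotation.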

Additional observations from a re-analysis of the deposited data

Results flagged for a closer look

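In the young group, Gimap5 in young female 1 (302 CPM) and Gimap6 in young male 1 (2255 CPM) lay far above the nearest other young library (232 and 1375 CPM) by Dixon's test. These were 2 of 18 groups of values examined, and chance alone sets apart about 1 in 20. Both libraries carry the number 1 and are the shallowest of the 11. The age difference of Gimap5 pointed upwards in every middle-aged male and downwards in every middle-aged female, with an interaction of -0.67 on the log2 scale that did not pass the test (SE 0.37; adjusted p = 1.00 by edgeR).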

How the results depend on the processing

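No Gimap gene was called for age in 26 of 27 alternatives, including each library left out in turn, and 1 (Gimap7) was called with the gene length slope as covariate. For sex (23 alternatives) and the interaction (24) the count stayed at 0. The exact permutation test could not pass adjustment over all genes, since 80 genes share its smallest p, and shows nothing about stability. The number of all genes called for age, 3 in the main model, was 112 by DESeq2, 136 by limma voom, 45 with the gene length slope, 19 with the replicate block, 17 with any gene of at least 1 count, 6 in the deeper libraries (all but young male 1 and young female 1), 5 without a sex term or with at least 10 counts in every library, 0 in males or females alone, and 1 to 4 with a library left out. The cause was not tested.

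The family sum turned to -0.0912 without the 4 libraries numbered 1 and was 0.02 to 0.17 with a library left out. Single members with small differences changed sign: Gimap1 (0.11 in females alone; -0.12 to 0.0768 with a library left out), Gimap3 (-0.15 by limma voom, -0.12 in the deeper libraries, -0.19 without the number 1; 0.0159 to 0.212 with a library left out), Gimap5 (0.00834 by limma voom, 0.00708 in the deeper libraries, 0.30 in males alone; -0.20 to 0.0463 with a library left out), Gimap6 (0.0844 in the deeper libraries, 0.0396 in females alone; -0.38 to 0.0483), Gimap8 (0.0737 with the replicate block, 0.10 with the block within sex, 0.0167 in females alone; -0.35 to 0.0709) and Gimap9 (0.11 by limma voom, 0.22 in the deeper libraries; -0.25 to 0.0540). Gimap4 (0.02 to 0.52) and Gimap7 (0.34 to 0.89) kept a positive sign in all 28 alternatives. For the replicate number, Gimap4 turned to -0.10 with library size alone and was -0.0116 to 0.31 with a library left out, Gimap1 was -0.28 to 0.0101, and Gimap5 was called without young male 1 (0.38, adjusted p = 0.0491), which made 5 members.

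The labels do not say that the replicate numbers pair the libraries. The deviations of same-numbered libraries correlated by 0.03 to 0.56 over 15 pairs, all positive but close to 0 for some numbered 2, and 8 of 11 libraries were matched best by their own number, a hint of shared numbers from the data. The main model has no block. With the replicate block, Gimap7 had a log2 fold change of 0.41 (adjusted p = 0.194), and with the block within sex 0.38 (adjusted p = 0.605), where a sex term could not be fitted.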
